A study of Mus musculus with 14 samples.

Results

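The genes described here are 6 adrenergic receptors (Adra1a, Adra1b, Adra1d, Adra2a, Adra2c and Adrb1) and Maob, the gene of monoamine oxidase B. They were chosen by name, and every probe whose RefSeq accession belongs to one of them was taken, which gave 10 probes for 7 genes out of 55681 probes and 20887 named genes on the array. Of the 7 genes, 6 were measured well enough to be tested among 14453 genes. Adra1a was not, because its single probe was not well above background on every array of any group.

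Each 1-colour Agilent array held RNA from the medial prefrontal cortex (mPFC), a frontal region that takes part in emotion and in social behaviour, of 1 mouse, and the 14 mice were wild-type C57BL/6. The 5 naive mice went through cage transfer, and the other mice went through repeated social defeat, in which a mouse is attacked by an aggressor in repeated sessions. By their behaviour, the labels divide the defeated mice into 6 susceptible and 3 resilient. All mice, naive ones included, were perfused 4 h after the last session under pentobarbital, the tissue was a 1.5 mm punch, and 35 ng of RNA was labelled per array. The labels used here give no age. They mention independent experiments without saying which mouse belonged to which, so each mouse counted as 1 replicate and experiment was not analysed here.

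Noradrenaline reaches the cortex through axons of the locus coeruleus, a brainstem nucleus. Its receptors are G protein-coupled: alpha-1 receptors act through Gq and phospholipase C, alpha-2 receptors through Gi, which lowers cyclic AMP and opens potassium channels, and beta receptors through Gs, which raises cyclic AMP. In the prefrontal cortex, alpha-2A receptors are known for supporting working memory, while alpha-1 and beta-1 receptors are engaged by the higher noradrenaline levels of stress. Monoamine oxidase B sits on the outer mitochondrial membrane, breaks down monoamines such as phenylethylamine and dopamine, and in the forebrain is found mainly in astrocytes.

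Signals are given as log2 of the scanner's processed intensity minus that array's 75th percentile, so a value of 0 is a probe at the array's 75th percentile and a difference of 1 is a doubling. Levels are compared between mice for the same probe, not between probes. The arrays lay on 3 slides and were scanned on 2 days. Naive mice were placed in slide row 1 and defeated mice in slide row 2 throughout, and the effects of row and of defeat cannot be told apart. Array brightness, the 75th percentile itself, ran from 7.25 to 8.64 on the log2 scale in naive mice. It ran from 7.69 to 9.24 in susceptible and 7.96 to 8.17 in resilient mice. On slides 1 and 2 every naive array was dimmer than every defeated one. Slide 1 had 7.31 in the naive mouse and 7.83 to 8.17 in defeated mice. Slide 2 had 7.25 and 7.36 in naive and 7.69 to 7.97 in defeated mice. On slide 3 naive mice had 8.54 and 8.64 and susceptible mice 9.24 and 8.63. All 8 listed markers of cortical excitatory neurons were above background on all 14 arrays. With 3 to 6 mice a group, the number of arrays limits the precision of every value below.

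None of the 6 tested genes passed the test in any comparison (limma, Benjamini-Hochberg adjusted p under 0.05 over all genes tested). Over all genes the same test called 2.6% between susceptible and naive mice, 0.145% between resilient and naive mice and 0% between susceptible and resilient mice. Once slide was a block these shares were 15.3%, 3.54% and 0%, and again 0 of the 6 genes were called in each comparison. At an unadjusted p under 0.05 the fit without the block also gave 0 of the 6, and with the block it gave 1 of the 6, Adrb1, between susceptible and naive mice. Over all genes, 24% and 34.3% were under that value in this comparison without and with the block, and 0.754% and 1.94% between susceptible and resilient mice. The median difference of the 6 genes between susceptible and naive mice was -0.002 on the log2 scale, beside 0.0195 over all genes tested. In bulk tissue, fewer cells of a type and less RNA per cell cannot be told apart.

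**Figure D1:**
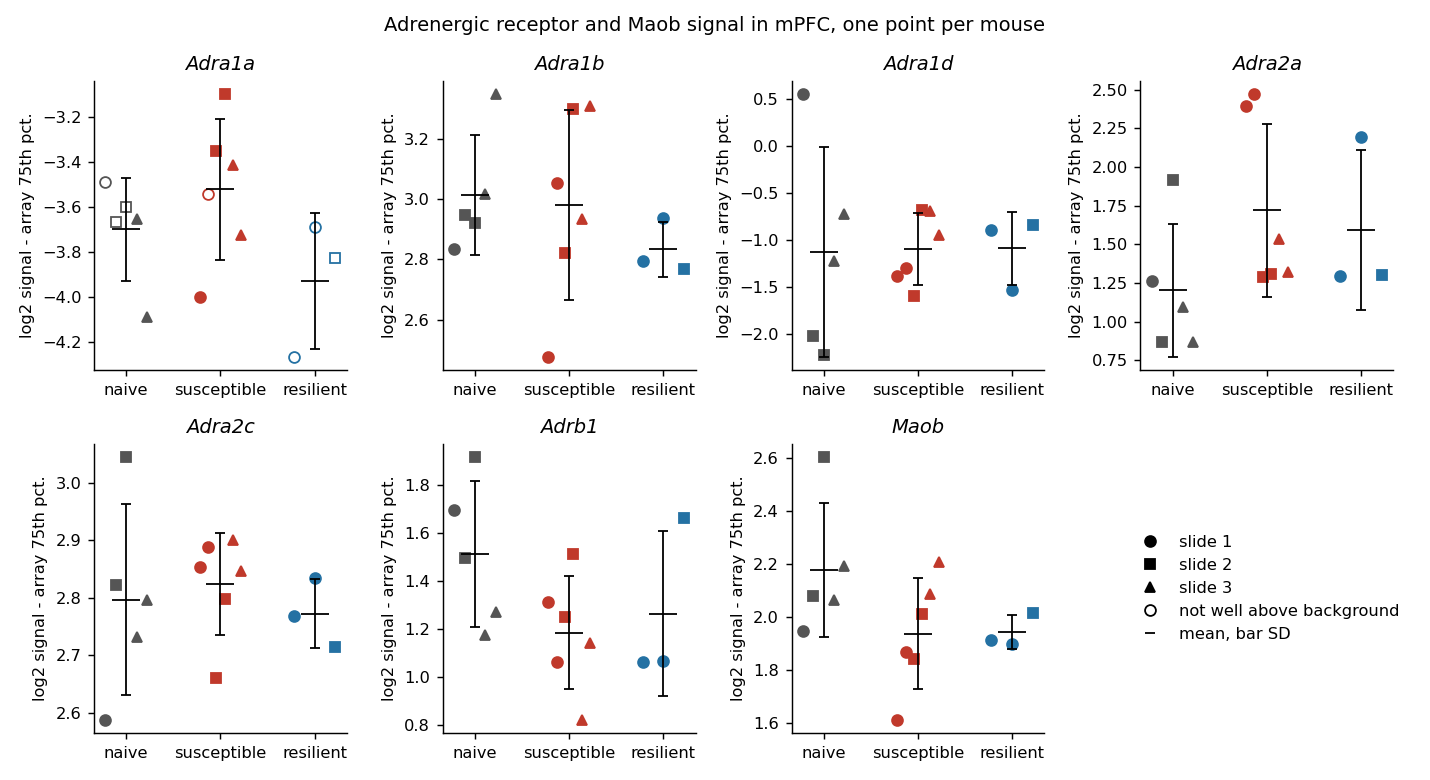
Signal of each gene in each mouse (log2 processed signal minus the array's 75th percentile, on the vertical axis of each panel with its own range) in the naive, susceptible and resilient groups. Each point is 1 mouse, its shape gives the slide, open points are not well above background, and the bars are the mean and SD. The groups overlap in every panel. In the Adra2a panel 4 of the 5 naive mice lie below all defeated mice, and in the Adra1d panel naive mouse 1 lies far above the rest.

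Among the alpha-1 receptors, which couple to Gq, Adra1b had the steadier signal. Its brighter probe read 2.83, 2.95, 2.92, 3.02 and 3.35 in naive mice 1 to 5. In the 6 susceptible mice it ran from 2.48 to 3.31 with a median of 2.99, and the 3 resilient mice read 2.80, 2.94 and 2.77. The 3 groups overlapped, and the lowest mouse of all was susceptible mouse 1. The difference between susceptible and naive mice was -0.03 ± 0.15 on the log2 scale (SE, limma adjusted p = 0.916), with a 95% interval from -0.34 to 0.28. Resilient mice had the lowest group mean, 2.83 ± 0.09 (SD, n = 3), below 2.98 ± 0.31 (n = 6) in susceptible and 3.01 ± 0.20 (n = 5) in naive mice, and none of these neighbours differed beyond their spread.

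A second Adra1b probe, well above background on all 14 arrays, gave another picture. Its group means were -0.73 ± 0.41 in naive (SD, n = 5), -1.01 ± 0.37 in susceptible (n = 6) and -1.04 ± 0.07 in resilient mice (n = 3). When every probe was tested on its own, it differed by -0.27 ± 0.20 between susceptible and naive mice (limma adjusted p = 0.452) and by -0.31 ± 0.24 between resilient and naive mice (adjusted p = 0.53). With slide as a block the adjusted p-values were 0.11 and 0.0804, so neither passed. Across the 14 arrays the signals of the 2 Adra1b probes had a Pearson r of 0.09 and a Spearman rho of 0.06, so the 2 probes ranked the mice differently.

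Adra1d, the alpha-1D receptor, varied most between mice of a group. Its brighter probe read 0.56, -2.01, -2.22, -1.22 and -0.72 in naive mice 1 to 5. In susceptible mice it ran from -1.59 to -0.68 with a median of -1.12, and in resilient mice it read -0.89, -1.53 and -0.83. Naive mouse 1 was the highest and naive mice 2 and 3 the lowest of all 14, so the naive group enclosed both defeated groups. The SD within groups was 0.74, larger than that of 97.9% of the genes tested, where the median gene had 0.23. The group means were nearly equal, -1.12 ± 1.12 in naive (SD, n = 5), -1.10 ± 0.38 in susceptible (n = 6) and -1.08 ± 0.39 in resilient mice (n = 3). The difference of 0.03 ± 0.40 between susceptible and naive mice (limma adjusted p = 0.974) has a 95% interval from -0.82 to 0.88, the widest of the 6 genes.

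Within slides the Adra1d difference between susceptible and naive mice was -1.89 on slide 1, 0.98 on slide 2 and 0.16 on slide 3. Naive mouse 1 was the only naive mouse on slide 1, and naive mice 2 and 3 were those on slide 2. The second Adra1d probe was above background in 3 of 5 naive, 6 of 6 susceptible and 3 of 3 resilient mice. On it naive mouse 1 read -2.45, inside the range of the defeated mice from -2.59 to -1.99, while naive mice 2 and 3 were the 2 arrays on which it was not well above background, so they have only an upper limit there. That probe differed by 0.40 ± 0.23 between susceptible and naive mice (limma on single probes, adjusted p = 0.321, and 0.0975 with slide as a block). The 2 probes had a Pearson r of 0.58 and a Spearman rho of 0.53 over the 14 arrays.

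Adra1a, the alpha-1A receptor, was near the limit of detection. Its probe read from -4.09 to -3.49 in naive, -4.00 to -3.10 in susceptible and -4.27 to -3.69 in resilient mice. It was well above background in 2 of 5 naive mice, 5 of 6 susceptible mice and 0 of 3 resilient mice. No group had its probe well above background on every array, so the size of any difference is not known. With no filter on dim probes, limma gave 0.41 ± 0.20 for susceptible against resilient mice (adjusted p = 1) and 0.18 ± 0.17 for susceptible against naive mice (adjusted p = 0.601). These are differences between readings near background, and no fold is read from them. Detection also moves with how bright an array is. The share of all spots well above background ran from 48.0% to 60.7% in naive and 53.6% to 65.4% in susceptible mice. In resilient mice it ran from 56.3% to 63.5%. On slide 1 it was 51.7% in the naive mouse and 55.2% to 63.5% in defeated mice. On slide 2 it was 52.4% and 48.0% in naive and 53.6% to 57.5% in defeated mice. On slide 3 the groups overlapped. The part of this share in the Adra1a counts was not tested.

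**Figure D2:**
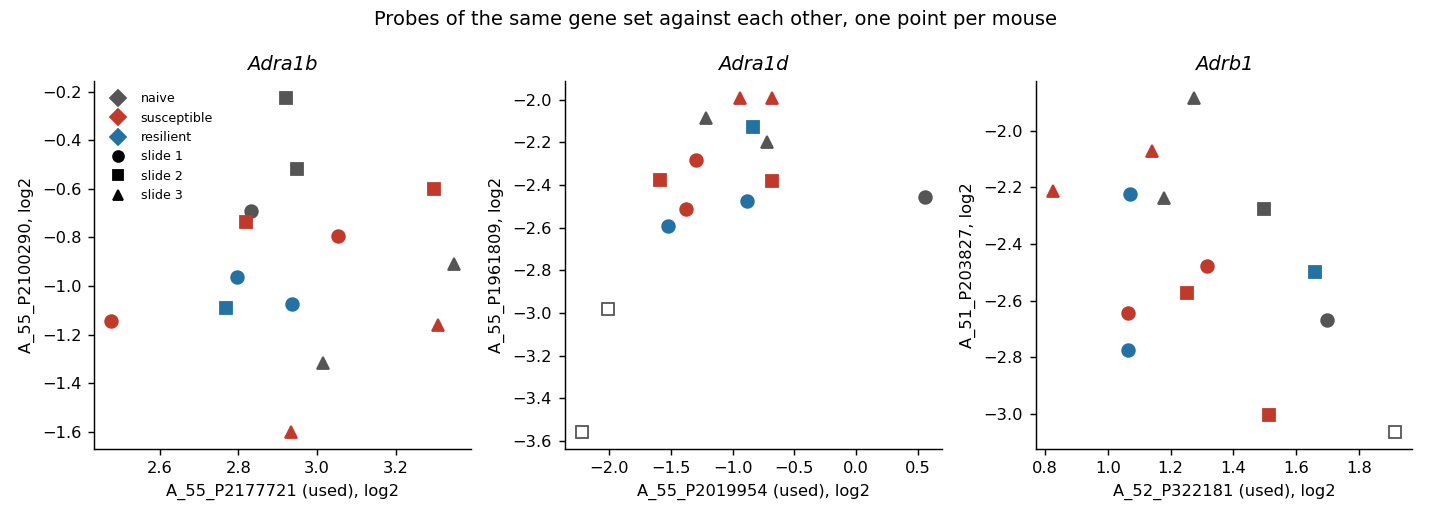
Signal of the 2 probes of Adra1b, Adra1d and Adrb1 in each mouse (log2 minus the array's 75th percentile, the probe used in the tests on the horizontal axis). Colour gives the group, shape the slide, and open points are arrays where the vertical-axis probe was not well above background. Pearson's r was 0.09 for Adra1b, 0.58 for Adra1d and -0.52 for Adrb1, and naive mouse 1 stands to the right in the Adra1d panel but not at the top.

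Adra2a had the largest difference of the 6 tested genes between susceptible and naive mice. This receptor sits on noradrenergic axon endings, where it limits release, and on dendritic spines of prefrontal pyramidal neurons. The 5 naive mice read 1.26, 0.87, 1.92, 1.10 and 0.87. Susceptible mice ran from 1.29 to 2.47 with a median of 1.43, and the resilient mice read 1.29, 2.19 and 1.30. Naive mice 1, 2, 4 and 5 were below all 9 defeated mice, but naive mouse 3 was above 6 of them, so the groups overlapped. The difference was 0.52 ± 0.28 on the log2 scale, 1.43-fold (limma adjusted p = 0.265), with a 95% interval from -0.07 to 1.11. Resilient mice differed from naive ones by 0.39 ± 0.33 (adjusted p = 0.539), and susceptible from resilient mice by 0.13 ± 0.32 (adjusted p = 1).

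The high Adra2a values were not spread evenly over the defeated mice. Susceptible mice 1 and 2 and resilient mouse 2, with 2.39, 2.47 and 2.19, all lay on slide 1, where the mean over 5 mice was 1.92, against 1.34 on slide 2 and 1.21 on slide 3. Within slides the difference between susceptible and naive mice was 1.17 on slide 1, which has 1 naive mouse, -0.09 on slide 2 and 0.45 on slide 3. With slide as a block it was 0.43 ± 0.23 (limma adjusted p = 0.196), while the difference of resilient from naive mice shrank to 0.06 ± 0.30 (adjusted p = 0.914). Without naive mouse 3 the blocked difference between susceptible and naive mice was 0.65 and passed (limma adjusted p = 0.0411). This was 1 of the 14 blocked fits that each left out 1 mouse, and in the others the adjusted p reached 0.532. With each array left out in turn, without and with the block, the difference of resilient from naive mice ran from -0.22 to 0.57. The SD of Adra2a within groups was 0.51, larger than that of 92.1% of the genes tested.

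Adra2c, the alpha-2C receptor, which also acts as an autoreceptor, had the smallest spread of the 6 genes. Naive mice read 2.59, 2.82, 3.05, 2.73 and 2.80. Susceptible mice ran from 2.66 to 2.90 with a median of 2.85, and resilient mice read 2.77, 2.83 and 2.71. All defeated mice lay inside the naive range. The SD within groups was 0.12, larger than that of only 5.9% of the genes tested. Susceptible mice differed from naive mice by 0.03 ± 0.09 on the log2 scale (limma adjusted p = 0.879), and the 95% interval from -0.16 to 0.22 is the narrowest of the 6 genes. Resilient mice differed from naive mice by -0.02 ± 0.11 (adjusted p = 0.924).

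Adrb1, the beta-1 receptor, which is the main Gs-coupled adrenergic receptor of cortical neurons, was lower on average in both defeated groups without passing the test. Naive mice read 1.70, 1.50, 1.92, 1.18 and 1.27. Susceptible mice ran from 0.82 to 1.51 with a median of 1.20, and resilient mice read 1.06, 1.07 and 1.66. Of the 6 susceptible mice, 3 were below every naive mouse, as were resilient mice 1 and 2, while resilient mouse 3 was above 3 of the 5 naive mice. The difference between susceptible and naive mice was -0.33 ± 0.16 on the log2 scale, that is 1.25-fold lower (limma adjusted p = 0.235), with a 95% interval from -0.68 to 0.02. Resilient mice differed from naive ones by -0.25 ± 0.20 (adjusted p = 0.505), and susceptible from resilient mice by -0.08 ± 0.19 (adjusted p = 1).

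Adrb1 was the gene for which slides mattered most for the error. Its mean was 1.24 on slide 1, 1.57 on slide 2 and 1.10 on slide 3, and within each slide susceptible mice were lower on average than naive ones, with differences of -0.51, -0.32 and -0.24. With slide as a block the SD fell from 0.28 to 0.19 and the difference stayed at -0.33 ± 0.12, with a 95% interval from -0.58 to -0.08 (limma unadjusted p = 0.0145, adjusted p = 0.0707). It passed with the block when naive mouse 2 was left out (-0.40, adjusted p = 0.0469) and when susceptible mouse 6 was left out (-0.38, adjusted p = 0.0438). These were 2 of the 14 blocked limma fits that each left out 1 mouse, and in the others the adjusted p reached 0.221. With array brightness as a covariate in place of the slide the difference was -0.19 (adjusted p = 0.329). The second Adrb1 probe, above background on all arrays but that of naive mouse 3, differed by -0.07 ± 0.21 (adjusted p = 0.882 on single probes). Its signal ran against that of the first over the 14 arrays, with a Pearson r of -0.52 and a Spearman rho of -0.43.

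Maob was likewise lower on average in both defeated groups, and did not pass the test. Naive mice read 1.95, 2.08, 2.61, 2.07 and 2.19. Susceptible mice ran from 1.61 to 2.21 with a median of 1.94, and resilient mice read 1.92, 1.90 and 2.02. Susceptible mice 1, 2 and 3 and resilient mice 1 and 2 lay below the lowest naive mouse, and the other 4 defeated mice lay inside the naive range. The difference between susceptible and naive mice was -0.24 ± 0.13 on the log2 scale, 1.18-fold lower (limma adjusted p = 0.266), with a 95% interval from -0.51 to 0.03. Resilient mice differed from naive ones by -0.23 ± 0.16 (adjusted p = 0.413), and susceptible from resilient mice by -0.0049 ± 0.15 (adjusted p = 1). Within slides the difference between susceptible and naive mice was -0.21, -0.42 and 0.02 on slides 1, 2 and 3, and with slide as a block -0.21 ± 0.11 (adjusted p = 0.21). That block moved the difference of resilient from naive mice to -0.11 ± 0.15 (adjusted p = 0.653).

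Maoa, the gene of monoamine oxidase A, which breaks down noradrenaline and serotonin, lies next to Maob on the X chromosome, with 0 protein-coding genes between them in the RefSeq table of GRCm38.p6. Its naive values, 0.14, 0.22, 0.53, 0.32 and 0.27, were all above those of the 6 susceptible mice, which ran from -0.44 to 0.11. The difference was -0.39 ± 0.11 on the log2 scale (limma adjusted p = 0.0683), and with slide as a block -0.36 ± 0.10, which passed (adjusted p = 0.0353). Resilient mice ran from -0.13 to 0.16 and overlapped the naive mice. They differed from naive mice by -0.31 ± 0.13 (limma adjusted p = 0.22), and by -0.22 ± 0.13 with the block (adjusted p = 0.315). Over the 14 arrays Maob and Maoa had a Pearson r of 0.86 and a Spearman rho of 0.77, a description over points that share slides and groups.

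Astrocyte markers moved with the groups too. The linear signal of 10 listed astrocyte markers was summed, with the array's 75th percentile as 1. The sum ran from 659.8 to 856.9 in naive, 487.2 to 608.7 in susceptible and 486.6 to 562.0 in resilient mice. Naive and defeated mice thus did not overlap in this sum. A linear sum gives most weight to the brightest markers and does not describe each of the 10. Between susceptible and naive mice 2 of the 10 fell, S100b by 0.64 and Aldoc by 0.53 on the log2 scale (limma adjusted p = 0.0491 and 0.0312), beside 2.6% of all genes called. The median difference of the 10 was -0.31, and 2 of the 10 went the other way, higher in susceptible mice. Between resilient and naive mice limma called 0 of the 10, beside 0.145%, and 5 had an unadjusted p under 0.05, beside 20.3%. The median there was -0.37, again with 2 of the 10 higher. With the slide block 3 fell in susceptible and 1 in resilient mice, beside 15.3% and 3.54% of all genes called in either direction, with medians of -0.28 and -0.22. All 10 were above background on all 14 arrays. Their part in the Maob values was not tested.

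**Figure D3:**
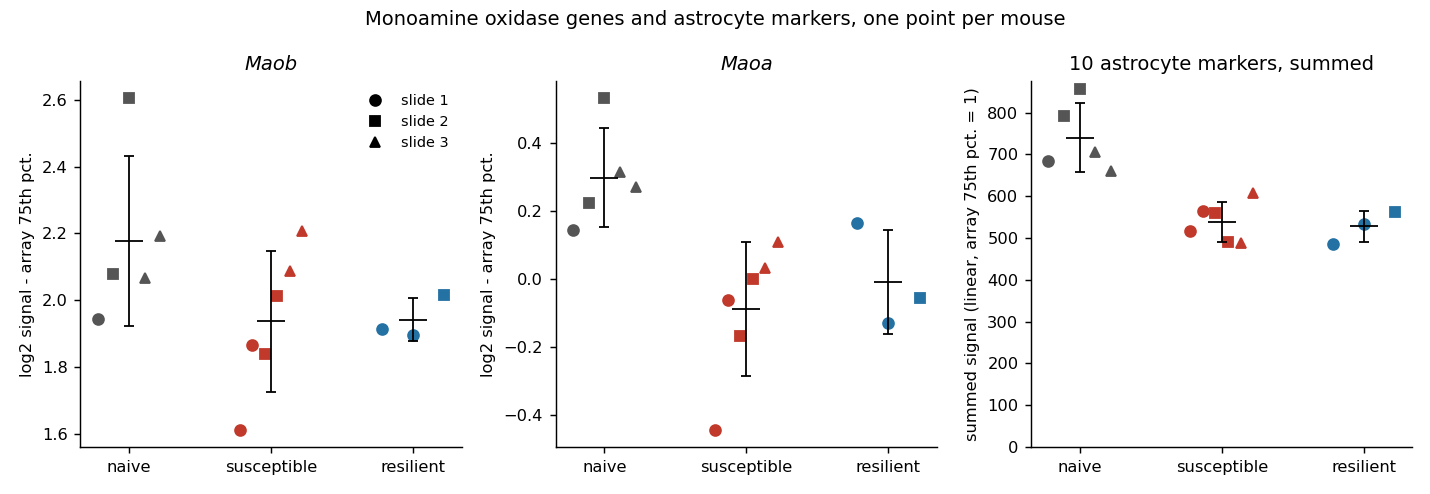
Signal of Maob and Maoa (log2 minus the array's 75th percentile) and the summed linear signal of 10 astrocyte markers (array's 75th percentile set to 1) in each mouse of the 3 groups. Points are mice, shapes are slides, and bars are the mean and SD. For Maob the groups overlap, while for Maoa all naive mice lie above all susceptible mice. In the astrocyte marker sum all naive mice lie above all defeated mice.

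The comparisons with naive mice share the same 5 naive mice, so their values stand side by side and are not independent. From susceptible to resilient mice, each against naive mice, the differences were 0.52 and 0.39 for Adra2a, -0.33 and -0.25 for Adrb1, -0.24 and -0.23 for Maob, and -0.03 and -0.18 for Adra1b. Directly compared without a block, susceptible and resilient mice differed by between -0.08 for Adrb1 and 0.15 for Adra1b. With the slide block the largest of these was Adra2a, at 0.37 ± 0.28 against 0.13 ± 0.32 without it, and Adra1b was at 0.04 ± 0.16 (limma adjusted p = 1 for each). Without the block the 95% intervals of this comparison ran from -0.17 to 0.28 for Adra2c, the narrowest and reached 0.98 for Adra1d, the widest.

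**Figure D4:**
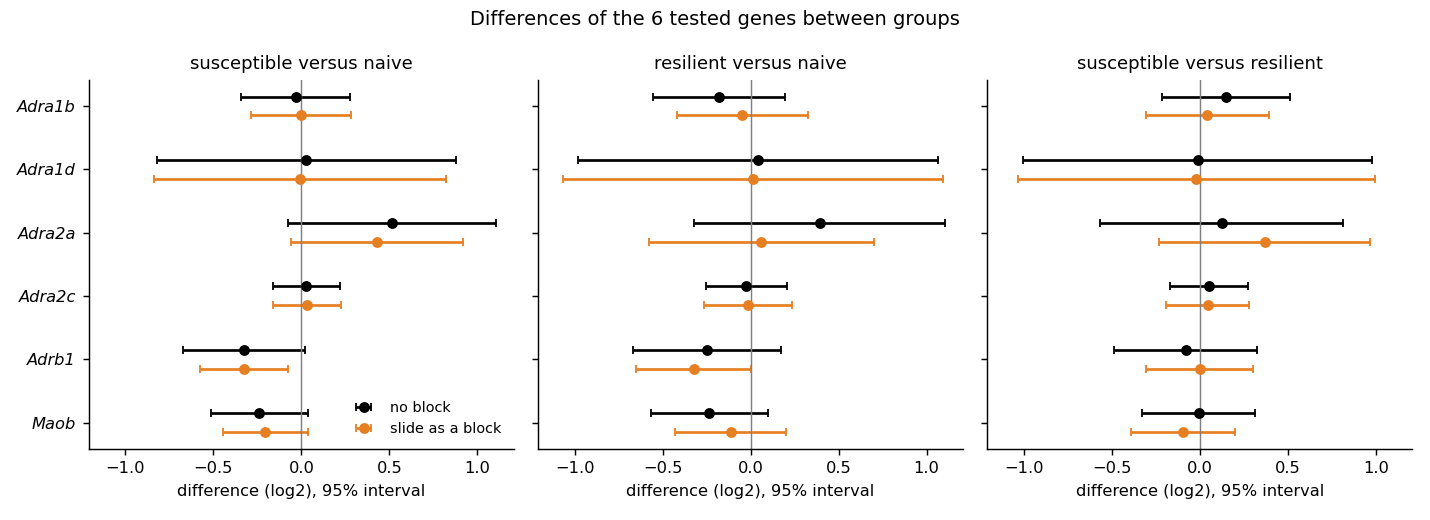
Differences between groups on the log2 scale with their 95% intervals for the 6 tested genes, without a block (black) and with slide as a block (orange). All intervals without the block include 0, and with the block that of Adrb1 between susceptible and naive mice, from -0.58 to -0.08, does not.

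The tested genes did not vary together as a set across mice. Over the 14 arrays the Pearson r between pairs of the 6 genes ran from -0.61, for Adra1d and Adra2c, to 0.49, for Adra1b and Maob. Spearman's rho ran from -0.345, for Adra1d and Adra2c, to 0.705, for the alpha-2 receptors Adra2a and Adra2c, whose Pearson r was 0.491. The gene whose signal was most like that of Adra1b, among 12859 genes above background on all arrays, was Rgs20 (Pearson r = 0.97, Spearman rho = 0.94), a regulator that shortens G protein signalling, followed by Pkp3 and Impg1. For Adra2a it was Kcnt1 (r = 0.87, rho = 0.80), a sodium-activated potassium channel, followed by Limd2 and Rhbdl3. For Adra2c it was Mrpl40 (r = 0.90, rho = 0.80), a mitochondrial ribosomal protein, followed by Shld1 and 0610009B22Rik. For Adrb1 it was Upp1 (r = 0.92, rho = 0.89), a uridine phosphorylase, followed by the transcription factor Meis2 and the kinase Bmx. For Maob it was Fam172a (r = 0.95, rho = 0.90), followed by Sgsm2 and Hipk3. Without the 2 mice farthest from the median these values stayed at 0.97 for Rgs20, 0.85 for Kcnt1, 0.83 for Upp1 and 0.87 for Fam172a, and fell to 0.71 for Mrpl40. For Adra1d it was Orc5, a subunit of the origin recognition complex, at an r of 0.85 and a rho of 0.70, followed by Tmem17 and Dchs1, and r was 0.70 without naive mice 1 and 3. These were picked as the highest of many correlations over arrays that share slides and groups, and carry no test.

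Beyond the receptors, 72 genes of noradrenaline synthesis, breakdown and signalling were listed, of which 68 were tested. Between susceptible and naive mice 2 rose and 0 fell, 2 of 68 beside 2.6% of all genes. Blocking on slide, 8 rose and 3 fell, beside 15.3% of all genes. Of those that rose, Prkar2a, Cacna1b and Dbh were tested only because a defeated group had them well above background on every array. In naive mice they did not meet that rule. Without the block the median difference of the 68 genes was 0.07 on the log2 scale, beside 0.02 over all genes tested. Between resilient and naive mice 0 were called, and 1 with the block, beside 0.145% and 3.54% of all genes. At an unadjusted p under 0.05 limma had 18 of the 68 between susceptible and naive mice, beside 24% of all genes, and 14 between resilient and naive mice, beside 20.3%. Both shares of the list were near those of all genes. Between susceptible and resilient mice 0 were called with or without the block, and 0 were under an unadjusted p of 0.05.

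Markers of several cell types moved with the same groups. Between susceptible and naive mice the median difference was -1.02 for meningeal fibroblast markers, with 0 of 8 higher, and -0.59 for endothelial markers, with 1 of 6 higher. It was 1.94 for blood leukocyte markers, of which 2 of 4 rose (limma, beside 2.6% of all genes called). For erythroid markers it was 1.59, with 5 of 5 higher and 0 called. It was 0.25 for inhibitory neuron markers, with 7 of 8 higher, and 0.21 for pan-neuron markers, with 5 of 6 higher. Cortical excitatory neuron markers went the other way, at -0.14 with 3 of 8 higher. The summed linear signal of 8 striatal neuron markers ran from 18.7 to 23.7 in naive, 24.9 to 26.4 in susceptible and 18.7 to 29.7 in resilient mice, and 6 of the 8 were higher in susceptible than in naive mice. That of the leukocyte markers ran from 0.468 to 0.823 in naive and 0.902 to 6.45 in susceptible mice, so for both lists these groups did not overlap. Of the 8 striatal markers, however, limma called 0 as higher and 1 as lower in susceptible mice, beside 2.6% of all genes called. With the slide block 1 of the 8 rose and 1 fell, beside 15.3%. Of the tested leukocyte markers only Camp was above background on all 14 arrays. S100a9 was on 13, Ptprc on 11 and S100a8 on 8, so each was missed on some array of some group. They were tested only through the groups that had them on every array. No conclusion is drawn from the leukocyte calls or sums. The part of these cell types in the values of the pathway genes was not tested.

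Among the enzymes that carry the receptors' signals, Adcy9, an adenylyl cyclase that makes cyclic AMP, rose in susceptible mice. Naive mice read 3.42, 3.05, 3.15, 3.27 and 3.47, susceptible mice ran from 3.44 to 4.04 with a median of 3.93, and resilient mice from 3.66 to 4.26. Naive mouse 5, the highest of its group, was above 1 of the 6 susceptible mice, and the groups otherwise did not overlap. The difference was 0.60 ± 0.14 on the log2 scale (limma adjusted p = 0.0404). Resilient mice differed from naive mice by 0.76 ± 0.17 (adjusted p = 0.0705), and by 0.64 ± 0.15 with slide as a block, which passed (adjusted p = 0.0398). Prkar1a, a regulatory subunit of the cyclic AMP-dependent kinase, also rose, by 0.38 ± 0.10 (adjusted p = 0.0497), from 3.33 ± 0.15 in naive (SD, n = 5) to 3.71 ± 0.14 in susceptible mice (n = 6), and these groups did not overlap.

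Both calls lay close to the threshold. Of the 14 fits that each left out 1 mouse, Adcy9 passed in 4, those without naive mouse 5, susceptible mouse 6 and resilient mice 2 and 3 (adjusted p = 0.0386, 0.0151, 0.0479 and 0.0378). In the other fits its difference stayed between 0.54 and 0.64 and its adjusted p between 0.0511, without naive mouse 1, and 0.0969, without naive mouse 2. Prkar1a passed in 2, without naive mouse 5 and without susceptible mouse 6 (adjusted p = 0.0463 and 0.0395), and reached at most 0.109, without naive mouse 2. With slide as a block Adcy9 passed in all 14 fits and Prkar1a in 13.

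In the blocked fit 4 of the 22 enzyme genes tested rose and 1 fell between susceptible and naive mice, beside 15.3% of all genes called. Besides Adcy9 and Prkar1a these were 3 more genes. Prkce, a protein kinase C, rose by 0.40 ± 0.11 (limma adjusted p = 0.0285). Prkar2a, another kinase regulatory subunit, differed by 1.09 ± 0.34 (adjusted p = 0.0491). Its probe was above background in 2 of 5 naive, 6 of 6 susceptible and 3 of 3 resilient mice. It was therefore tested only through the defeated groups, where it was higher, and no conclusion is drawn from its call. Adcy5, an adenylyl cyclase, fell by 0.35 ± 0.11 (adjusted p = 0.0435). Of 9 G protein alpha subunits 1 was called with the block, beside 15.3% of all genes. This was Gnai2, a Gi subunit, which fell by 0.36 ± 0.10 (limma adjusted p = 0.0345). Gnaq, the Gq subunit used by alpha-1 receptors, differed by -0.24 ± 0.10 (adjusted p = 0.113).

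Of the 6 channel genes, which noradrenaline receptors act on in cortex, 3 rose with slide as a block, beside 15.3% of all genes called, and 0 without, where 4 had an unadjusted p under 0.05 in limma, beside 24% of all genes. Kcnj3 and Kcnj9, subunits of the potassium channels opened by Gi-coupled receptors, rose by 0.42 ± 0.12 and 0.38 ± 0.12 (limma adjusted p = 0.0353 and 0.0442). Cacna1b, the pore subunit of N-type calcium channels, rose by 0.58 ± 0.16 (adjusted p = 0.0332). Its signal was low, with a naive mean of -3.00, and was well above background in 4 of 5 naive and all defeated mice. Cacna1b was thus tested only through the defeated groups, where it was higher. When single mice were left out of the blocked fit, Kcnj3 passed in 8 of the 14 fits, Kcnj9 in 2 and Cacna1b in 7, so these calls rest on few mice. Of the other blocked calls, Prkce passed in 8, Gnai2 in 7, Dbh and Maoa in 6, Prkar2a in 4 and Adcy5 in 3.

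The cell bodies of noradrenaline-making neurons lie in the brainstem, and markers of these neurons were detected unevenly. Slc6a2, the noradrenaline transporter, and the transcription factor Phox2a were well above background on 0 of 14 arrays. Th, the first enzyme of dopamine and noradrenaline synthesis, was above background on all 14, with 1.28 ± 0.22 in naive (SD, n = 5), 1.16 ± 0.34 in susceptible (n = 6) and 1.24 ± 0.23 in resilient mice (n = 3), and Slc18a2, the vesicular monoamine transporter, on 13. Dbh, the enzyme that makes noradrenaline from dopamine, was well above background in 2 of 5 naive, 5 of 6 susceptible and 3 of 3 resilient mice. Its difference between susceptible and naive mice was 0.56 ± 0.19 (limma adjusted p = 0.108), and 0.60 ± 0.17 with slide as a block (adjusted p = 0.0355), at a signal close to background. Dbh was tested only through the resilient group, where it was high, and no conclusion is drawn from its call. Ddc, an earlier enzyme of the same route, differed by -0.44 ± 0.18 (adjusted p = 0.156).

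Among the genes that remove or limit the signal, Aldh1a1, an aldehyde dehydrogenase, differed by -0.69 ± 0.25 between susceptible and naive mice (limma adjusted p = 0.124). Of 10 genes of receptor desensitisation 0 were called with or without the block (2 and 3 at an unadjusted p under 0.05, beside 24% and 34.3% of all genes). Rgs2, which speeds up the switching off of Gq, had the largest difference among them, 0.45 ± 0.15 in susceptible and 0.65 ± 0.18 in resilient mice against naive ones (adjusted p = 0.0962 and 0.1). Rgs14, of the same family, differed by 0.25 ± 0.11 in susceptible mice (adjusted p = 0.203). Of 8 receptor scaffold genes 0 were called, and 2 had an unadjusted p under 0.05, beside 24% of all genes: Nos1, which differed by 0.35 ± 0.16, and Magi2, by 0.36 ± 0.17 (adjusted p = 0.205 for both). Akap5, which anchors the cyclic AMP-dependent kinase, differed by 0.26 ± 0.14 (adjusted p = 0.264). Of the adrenergic receptors outside the 7 genes, Adrb3 differed by -0.36 ± 0.23 and Adra2b by 0.04 ± 0.27 in susceptible mice (adjusted p = 0.348 and 0.95).

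**Figure D5:**
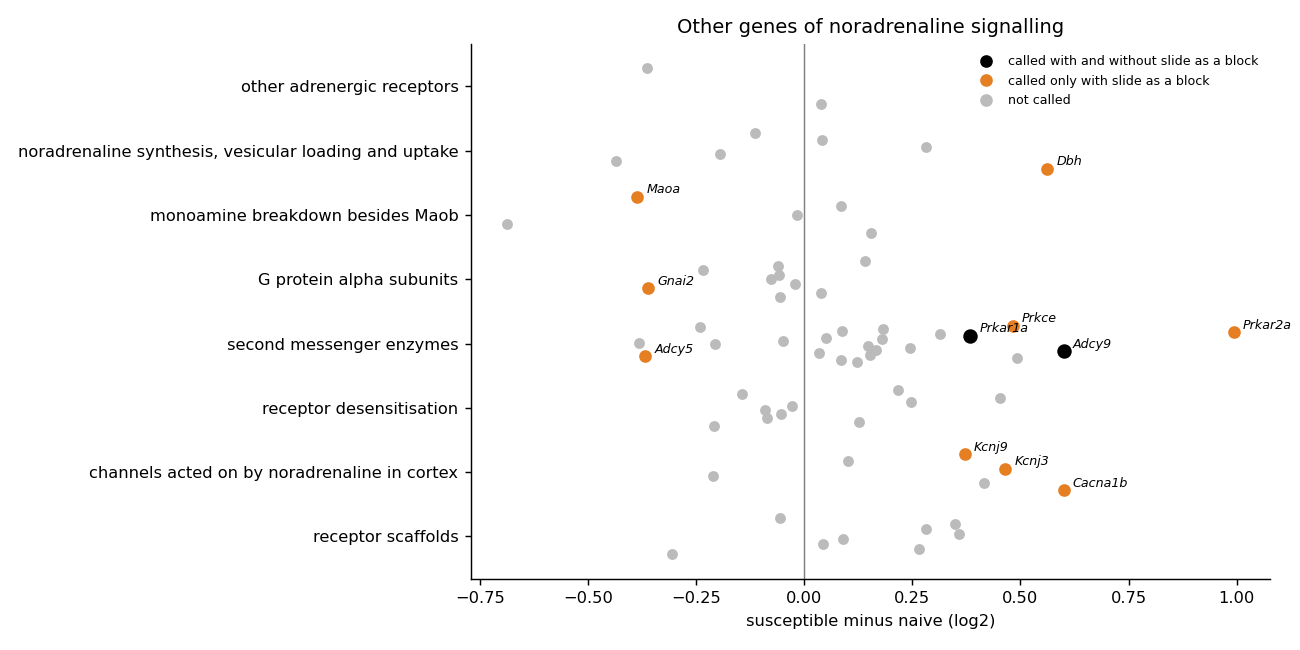
Difference between susceptible and naive mice (log2, horizontal axis, fit without a block) of the 68 other tested genes of noradrenaline signalling, grouped by role on the vertical axis, with 1 point a gene. Black points passed with and without slide as a block (Adcy9 and Prkar1a), orange points only with it, and grey points in neither fit. The enzyme group holds both black points, and the channel group has 3 orange points, all to the right of 0. Of all genes tested, 2.6% were called without the block and 15.3% with it.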

How the data were processed

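The authors deposited scanner output of Agilent Feature Extraction (version 11.0.1.1, per the file headers). Its processed signal is a linear intensity per spot, background-subtracted by that software and not normalised between arrays. The authors' value table holds log2 values of the same arrays. Flags for background, saturation and outliers are other columns that were deposited with the intensities.

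Control spots and outlier spots were left out, spots of a probe were averaged, log2 was taken and each array's 75th percentile over non-control spots was subtracted. A probe was tested when every array of some group had it well above background, and a gene was represented by its probe with the highest mean signal. Accessions were matched to the RefSeq gene table of GRCm38.p6 for names and neighbours, not coordinates, since the headers name mm9; 27509 of 55681 probes received one. Probe specificity was not analysed here.

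All 14 arrays were fitted together with 3 groups in limma 3.58.1 (R 4.3.3, lmFit, eBayes), with Benjamini-Hochberg adjustment over 14453 genes and calls at adjusted p under 0.05. The code was tested on simulated data. Alternatives were quantile normalisation, the percentile over detected probes, normexp background correction on median intensities (offset 50), the authors' log2 table, other filters, probe rules and thresholds, blocks for slide, scan day and replicate number, a brightness covariate, array weights, trend and robust settings, the compared groups alone, single slides and each mouse left out. The genes and lists were chosen with earlier results of these data known. Pathway genes named are those called in any comparison with or without the slide block and the 2 of each role with the smallest p; Slc6a2, Th, Slc18a2, Phox2a, Magi2, S100b and Aldoc were added after their values were seen. Some listed genes are not reported here.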

Additional observations from a re-analysis of the deposited data

How the results depend on the processing

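Under the alternatives that kept all mice, or all those on 1 slide, 0 of the 6 genes were called in any comparison. Of 330 values of single differences 299 kept their direction and 31 turned sign. The 299 include values that could not move. The other threshold, the trend and robust settings and the compared groups alone leave a difference as it is. So do single probes and the filter for probes above background on all arrays, which kept the same probes. The 299 are therefore no measure of robustness. Between susceptible and naive mice the sign turned for Adra1d with normexp (-0.12), slide as a block (-0.0068), brightness as a covariate (-0.081), array weights (-0.24) and on slide 1 (-1.89), for Adra1b with normexp (0.021) and on slide 2 (0.12), for Adra2a (-0.094) and Adra2c (-0.20) on slide 2, and for Maob on slide 3 (0.018). Between resilient and naive mice it turned for Adra1d with normexp (-0.10), brightness (-0.017), array weights (-0.077) and on slide 1 (-1.76), for Adra2c with quantile normalisation (0.0030), normexp (0.020), array weights (0.0071) and on slide 1 (0.21), for Adra1b on slide 1 (0.033) and for Adra2a on slide 2 (-0.094). Between susceptible and resilient mice it turned for Adra1d with quantile normalisation (0.00039) and the mean of its probes (0.065), for Maob with normexp (0.038) and the authors' table (0.0011), for Adrb1 with scan day as a block (0.049) and on slide 1 (0.12), for Adra1b on slide 1 (-0.10) and for Adra2a on slide 2 (-0.00016). The cause was not tested.

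Replicate numbers are shared between groups without a label that pairs them, and same-numbered mice had correlations of their deviations from -0.38 to 0.71 over 11 pairs, so they were not taken as pairs. A replicate block gave 8 called pathway genes between susceptible and naive mice, beside 1708 of all 14453 genes. It gave 3 between resilient and naive mice, beside 728 of all genes, and 0 of the 6 genes. The block turned the sign of Adra1d (-0.0013) in the first comparison. It also turned that of Adra1b (-0.040) and Adrb1 (0.033) between susceptible and resilient mice.

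Pathway genes called between susceptible and naive mice, 2 of 68, numbered 11 with slide and 12 with scan day as a block, 10 with brightness as a covariate, 9 at an adjusted p under 0.1, 1 with normexp, the authors' table or the mean of a gene's probes, and 0 with no filter, each probe on its own, the compared groups alone or single slides. Calls over all 14453 genes there numbered 376 without a block, 2213 with slide, 2501 with scan day and 1464 with brightness. They numbered 1423 at the 0.1 threshold, 136 with normexp, 544 with the mean of probes and 66 with the compared groups alone. The authors' table gave 330 of 14458, no filter 35 of 20877 and single probes 366 of 29813. Between resilient and naive mice called pathway genes numbered 0, but 1 with slide as a block, trend and robust settings or the 0.1 threshold. They numbered 3 with array weights, 5 with scan day as a block and 8 with brightness. Of all genes 21 were called there, and in those settings, in order, 511, 63, 324, 762, 1466 and 1100.

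With single mice left out, without or with the slide block, 0 to 1 of the 6 genes were called between susceptible and naive mice. Called pathway genes numbered 0 to 13 there and 0 to 5 between resilient and naive mice. Calls over all 14453 genes ran from 27 to 2801 in the first comparison and from 0 to 1182 in the second. Differences between susceptible and naive mice then ran from -0.097 to 0.069 for Adra1b, -0.25 to 0.61 for Adra1d and -0.050 to 0.10 for Adra2c, and kept their sign for Adra2a, Adrb1 and Maob. Between resilient and naive mice they ran from -0.23 to 0.082 for Adra1b, -0.53 to 0.90 for Adra1d, -0.22 to 0.57 for Adra2a, -0.13 to 0.064 for Adra2c and -0.29 to 0.012 for Maob. Between susceptible and resilient mice they ran from -0.076 to 0.25 for Adra1b, -0.33 to 0.48 for Adra1d, -0.026 to 0.57 for Adra2a, -0.013 to 0.086 for Adra2c, -0.18 to 0.18 for Adrb1 and -0.16 to 0.060 for Maob.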
